A study of Mus musculus with 4 samples.

Results

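The Myc locus was examined as a stretch of mouse chromosome 15 (build mm10) that reaches from 985.4 kb before to 1714.6 kb after the Myc transcription start site and holds Myc, the long noncoding RNA gene Pvt1 and the gene-poor DNA on either side of them. The elements are stretches of the genome that a STARR-seq reporter screen listed as differing from the reference level. Every listed element centred in this 2.7 Mb was taken, whatever its value, which gave 34 of the 24232 elements in the authors' deposited table. The screen was run in primary T cells of C57BL/6NJ mice activated towards the T helper 17 (Th17) fate, the CD4 T cell lineage that makes interleukin-17, with 4 biological replicates that form 1 group. All were treated for 3 days with anti-CD3e at 0.25 µg/mL, anti-CD28 at 1 µg/mL, anti-Interleukin-4 at 2 µg/mL, anti-Interferon-gamma and Interleukin-6, and carried the reporter library as a transiently transfected episome, so that each fragment was read outside its own chromosome. The age and sex of the mice are not given in the labels. A further experiment that the labels name as a possible control was not analysed here.

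In STARR-seq a fragment of the genome sits in the transcribed part of a plasmid, and the RNA it yields is set against the plasmid put in. The authors combined the 4 replicates into 1 log2 fold change with a p-value and a q-value (a p-value adjusted for the number of tests) per element, and these values are theirs throughout. The file states neither the base of the logarithm nor the direction of the ratio. Base 2 and reporter RNA over input are taken here, and an element with a positive value is called higher and one with a negative value lower. Were the ratio the other way round, higher and lower would change places. The depth behind each value is unknown, no value carries a spread between replicates, and the table holds only elements with a q-value under 0.01, which is 21.1% of the number of tests its q-values imply. A stretch without a listed element may therefore have been tested without passing or not tested at all.

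Myc encodes a basic helix-loop-helix transcription factor that pairs with MAX at the E-box CACGTG and drives growth, metabolism and division; T cells switch it on soon after antigen receptor and CD28 stimulation. Pvt1 lies after Myc on the same strand and is transcribed into long noncoding RNAs. The gene desert on the Pvt1 side is known to hold enhancers that act on Myc over long distances, with different stretches used in different tissues, several of them in blood cells. Distances below run from the centre of an element to the Myc transcription start site (TSS) at chr15:61985391 in GENCODE M21, and "after" means in the direction of Myc transcription. Pvt1 spans 52.6 to 392.7 kb after that site, and Myc is the only protein-coding gene with a TSS in the window.

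The sequences of 5 elements are printed (GRCm38, plus strand, at most 300 bases around the centre). Longer elements are thus shown in part. The labels give a size range of 200 to 400, so the 75 bp element need not be a whole tested fragment. In order they are the highest element, those with the smallest p-value after and before Myc, the lowest element, and the 75 bp higher element nearest to the promoter. Capitals mark exact matches to the motifs listed further on. They are AP-1 and GATA in the first, STAT and GATA in the second, none in the third, GATA and AP-1 in the fourth and RUNX and RBPJ in the last. Matches outside the printed bases are not shown, such as AP-1 in the second and RUNX in the third.
120.6 kb before Myc, chr15:61864613-61864912, plus strand: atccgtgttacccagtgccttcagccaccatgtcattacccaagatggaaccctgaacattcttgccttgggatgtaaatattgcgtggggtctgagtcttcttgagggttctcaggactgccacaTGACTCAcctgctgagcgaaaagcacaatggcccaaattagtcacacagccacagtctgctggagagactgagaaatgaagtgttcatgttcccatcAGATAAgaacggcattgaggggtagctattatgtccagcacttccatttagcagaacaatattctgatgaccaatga
749.8 kb after Myc, chr15:62735076-62735375, plus strand: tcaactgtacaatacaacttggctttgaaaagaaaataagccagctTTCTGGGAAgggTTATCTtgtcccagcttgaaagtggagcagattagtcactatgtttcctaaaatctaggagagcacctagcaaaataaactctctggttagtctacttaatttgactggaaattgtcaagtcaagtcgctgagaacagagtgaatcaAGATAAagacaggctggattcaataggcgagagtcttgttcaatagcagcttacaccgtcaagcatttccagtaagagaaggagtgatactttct
530.4 kb before Myc, chr15:61454851-61455150, plus strand: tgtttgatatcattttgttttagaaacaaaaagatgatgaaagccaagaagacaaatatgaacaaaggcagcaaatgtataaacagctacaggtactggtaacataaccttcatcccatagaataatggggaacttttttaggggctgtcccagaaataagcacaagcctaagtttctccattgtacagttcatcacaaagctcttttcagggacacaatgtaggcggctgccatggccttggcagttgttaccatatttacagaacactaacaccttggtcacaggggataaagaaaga
588.2 kb before Myc, chr15:61397026-61397325, plus strand: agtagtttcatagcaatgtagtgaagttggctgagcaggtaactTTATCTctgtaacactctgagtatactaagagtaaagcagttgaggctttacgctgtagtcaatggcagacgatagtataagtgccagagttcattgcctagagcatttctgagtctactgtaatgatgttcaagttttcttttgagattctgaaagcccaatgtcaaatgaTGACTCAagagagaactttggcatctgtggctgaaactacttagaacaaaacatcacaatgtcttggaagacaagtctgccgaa
3.7 kb before Myc, chr15:61981626-61981700, plus strand: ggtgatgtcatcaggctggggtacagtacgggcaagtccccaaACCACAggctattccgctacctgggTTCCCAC

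Most elements of the locus were higher. Of the 34, 26 were higher and 8 were lower, a share of 76.5% higher (exact Clopper-Pearson 95% interval, counting error only, 58.8 to 89.3%), where 49.4% of all listed elements were higher and 50.6% lower. The log2 fold changes ran from -1.69 to 2.30 with a median of 1.17. The higher elements had a median of 1.30 and the lower ones of -1.18, both nearer to 0 than the medians of 1.47 and -1.33 over all higher and all lower elements. Only 9 of the 26 higher elements lay above the median of all higher elements, and 3 reached a log2 fold change of at least 2. The locus therefore held many elements of middling size and none at the extremes of the table, which reached 8.91 and -8.37. A q-value under 1e-05 was reached by 15 of 26 higher and 1 of 8 lower elements, while 6 higher and 5 lower elements had a q-value over 0.001. Another lower element, 1.7 kb after the Myc TSS, lay just over the first limit, at 1.08e-05. The same counts were not made over all higher and all lower listed elements.

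**Figure D1:**
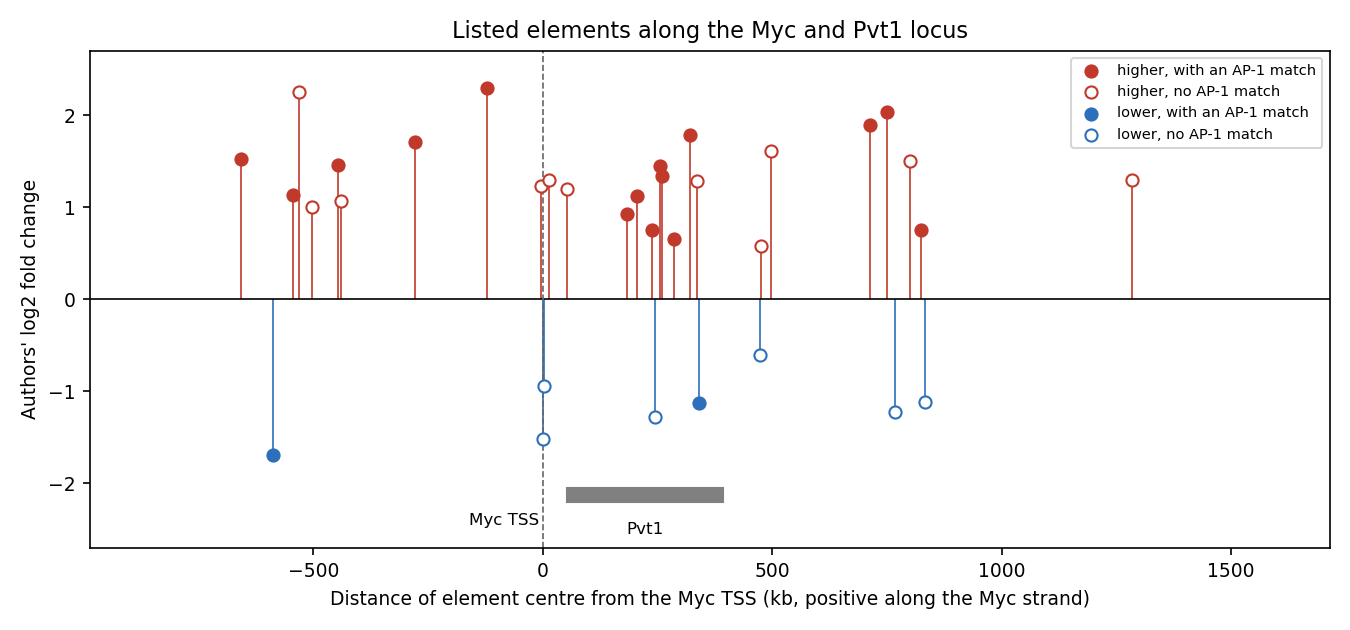
Each stem is 1 of the 34 listed elements, at the distance of its centre from the Myc TSS in kb (x axis) and with its height the authors' log2 fold change (y axis); red is higher, blue is lower, and a filled head means at least 1 exact AP-1 match. The grey bar is the GENCODE span of Pvt1. The highest element, at 2.30, stands 120.6 kb before Myc, the lowest, at -1.69, 588.2 kb before it, and no element stands between 833.3 and 1283.6 kb after it.

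The elements were spread unevenly. The window held 12.6 elements per Mb, beside 10.2 over chromosome 15 and 8.89 over all chromosomes. By stretch, 9 elements lay more than 10 kb before Myc (9.23 per Mb), 3 within 10 kb of its TSS (150 per Mb, over only 0.02 Mb), 1 between there and Pvt1, 11 over Pvt1 (32.3 per Mb) and 10 beyond Pvt1 (7.56 per Mb). Of 28 bins of 100 kb along the window, 14 held no element. The widest stretch without one inside the locus was 449.7 kb long and lay between the elements 833.3 and 1283.6 kb after Myc, followed by 214.4 kb between those at 498.4 and 713.3 kb. At the edges, the last element before the window lay 491.2 kb from the first of the locus. The next one past it, 728.4 kb from the last of the locus, had a log2 fold change of -2.50 and was centred 231.5 bp from the TSS of Fam49b. Of the 33 neighbouring pairs of elements of the locus 21 had 1 sign, and among the 9 pairs less than 10 kb apart 3 did. The same count was not made over all listed elements, and whether signs depend on the neighbour was not tested.

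The Myc promoter was among the lower elements. An element of 700 bp (chr15:61984951-61985650) covered 440 bases before the Myc TSS and 260 bases of exon 1 from the TSS on, with a log2 fold change of -1.52, which is 2.87-fold lower, and a q-value of 1.49e-09. That was the smallest q-value of any lower element of the locus. Another element, of 150 bp, began 1400 bases further on, 1.7 kb after the TSS (chr15:61987051-61987200), with a log2 fold change of -0.94 and a q-value of 1.08e-05. Its centre lies 91.5 bp from the start of another annotated Myc transcript and in the untranslated first exon of that transcript. Both were rich in GC, at 61.3% and 67.3%, and in CpG dinucleotides, with observed over expected ratios of 0.84 and 1.01, beside medians of 45.4% and 0.16 over the locus. Promoters elsewhere were mostly lower too: of 9508 listed elements within 1 kb of a coding TSS, 13.3% were higher, and their median log2 fold change was -1.22.

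The Myc promoter was flanked by 3 higher elements. The nearest was the 75 bp element 3.7 kb before the TSS (chr15:61981626-61981700), inside an annotated transcript of unsettled class, Gm37947. It had a log2 fold change of 1.23 and a q-value of 1.51e-08, and its printed sequence holds the RUNX and RBPJ matches. Its GC of 58.7% was the highest among the higher elements of the locus. On the other side, the intergenic element 13.5 kb after the TSS (chr15:61998576-61999275) had a log2 fold change of 1.30 and a q-value of 3.79e-07, and it was the only one between Myc and Pvt1. The third, 53.9 kb after the TSS (chr15:62039101-62039475), was centred in a Pvt1 exon, 31.0 bp from the start of an annotated Pvt1 transcript. This start is not the first of the gene, which lies 1302 bp before the centre of the element and has no listed element. Its log2 fold change was 1.20 and its q-value 3.18e-06. An element at a later Pvt1 transcript start was thus higher, while both at Myc transcript starts were lower. The Pvt1 element had a GC of 47.7%, against 61.3% and 67.3% for the Myc ones.

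Before Myc, 8 of 9 elements were higher, with a median log2 fold change of 1.46 over the 9. The highest of the whole locus was the intergenic element 120.6 kb before the TSS (chr15:61864601-61864925), at 2.30 or 4.91-fold, with a q-value of 8.59e-12. It exceeded 80.2% of all higher elements in the table. The element with the smallest p-value of the locus lay 530.4 kb before the TSS (chr15:61454601-61455400), at 2.25 or 4.75-fold, with a q-value of 3.99e-15. It belonged to a group of 6 elements spanning 149.6 kb. The lowest element of the locus opened this group 588.2 kb before Myc (chr15:61396851-61397500), at -1.69 or 3.24-fold lower with a q-value of 0.000467. The other 4 had log2 fold changes of 1.13 at 543.5 kb, 1.00 at 502.3 kb, 1.46 at 446.2 kb and 1.07 at 438.6 kb. The last 2 lie in introns of the lincRNA gene D030024E09Rik, which also holds the element 279.1 kb before Myc, at 1.71 with a q-value of 0.00173. The most distant on this side, 657.5 kb before Myc in an intron of the lincRNA gene Gm29904, had a log2 fold change of 1.52 and a q-value of 0.00023.

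Over Pvt1, 9 of 11 elements were higher, with a median of 1.13. Elements stood denser here than before Myc or beyond Pvt1, and 7 of them lay between 184.4 and 286.2 kb after the Myc TSS. The pair with the smallest q-values stood 4.8 kb apart. The element at 254.7 kb (chr15:62239876-62240400) had a log2 fold change of 1.45 and a q-value of 3.0e-10, and the one at 260.1 kb (chr15:62245201-62245875) had 1.34 and 5.77e-10. Each holds an AP-1 match. Next to them, 244.4 kb after Myc, was a lower element at -1.28 with a q-value of 0.00884, the largest q-value of the locus. The smaller values in this group were 0.92 at 184.4 kb, 1.13 at 204.7 kb, 0.75 at 237.6 kb and 0.66 at 286.2 kb. The element at 237.6 kb was centred 422.5 bp from a further annotated Pvt1 transcript start. A further 3 lay in later introns of Pvt1, at 1.79 (320.5 kb), 1.29 (335.7 kb) and -1.13 (340.4 kb). The first of these, 300 bp long with a q-value of 0.00718, was the only element of the locus made mostly of repeats: 100% of its bases were repeat-masked. No element had another copy of at least 95% identity over at least 90% of its length on the chromosomes.

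Beyond Pvt1, 7 of 10 elements were higher, with a median of 1.02. They fell into 2 groups and 1 element apart. The first group stood 472.9, 476.4 and 498.4 kb after Myc. Its first 2 members had the smallest fold changes of the locus, -0.60 and 0.58, only 3.3 kb from each other, and the third reached 1.61 with a q-value of 7.88e-09. The second group, between 713.3 and 833.3 kb, held the strongest elements of this side. At 713.3 kb (chr15:62698351-62699025) the log2 fold change was 1.90 or 3.73-fold, with a q-value of 1.75e-12, and at 749.8 kb (chr15:62734851-62735600) it was 2.04 or 4.11-fold, with a q-value of 8.87e-14. Both lie in introns of the lincRNA gene Gm41333. So does the lower element at 767.5 kb, at -1.22 with a q-value of 0.00368. The remaining 3 of the group were intergenic: 1.5 at 801.1 kb (q-value 1.52e-07), 0.75 at 824.0 kb (0.000857) and -1.12 at 833.3 kb (0.00392). The most distant element of the locus, 1283.6 kb after Myc (chr15:63268551-63269375), lay in introns of 2 overlapping lincRNA genes, Gm41335 and Gm49014, and had a log2 fold change of 1.29 with a q-value of 4.15e-07. Shares by stretch rest on few elements; the exact interval beyond Pvt1, for instance, was 34.8 to 93.3% around 70.0%.

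The share of higher elements was near that of other elements of the same base composition. GC and direction go together across the table: of 10 classes of about equal size, 90.8% of the elements in the class lowest in GC were higher, and 1.20% in the class highest in GC. The elements of the locus were poor in GC, with 31 of 34 under 52%, a median of 45.4% and 53.0% over all elements. All elements weighted to the GC of the locus gave 79.5% higher, which lies inside the interval of the 76.5% observed. Against other gene deserts, 23 of the 29 elements more than 100 kb from a coding TSS were higher, 79.3% (exact interval 60.3 to 92.0%), where 87.3% of the 2120 such elements outside the locus were. That value too lies inside the interval. The median over the higher elements of these 29 was 1.34, and 1.65 over those elsewhere.

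**Figure D2:**
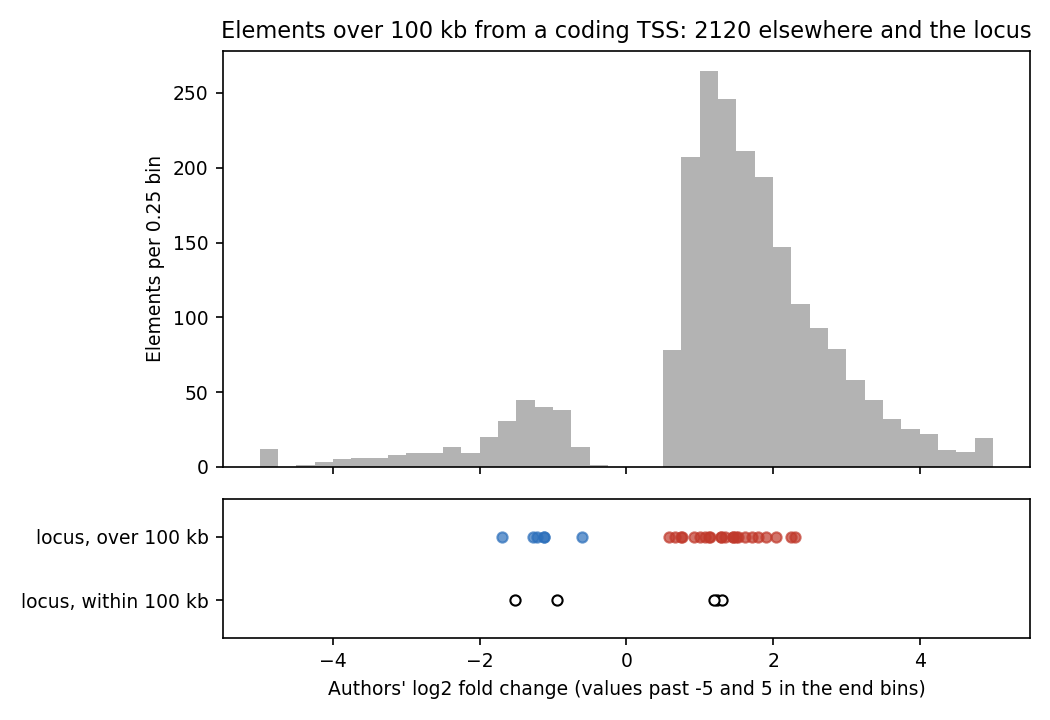
The upper panel counts the 2120 elements more than 100 kb from a coding TSS outside the locus by the authors' log2 fold change, in bins of 0.25 with values past -5 and 5 in the end bins. The lower panel gives 1 point per element of the locus, those over 100 kb from a coding TSS in red (higher) and blue (lower) and the other 5 as open circles. The points of the locus run from -1.69 to 2.30, inside the bulk of both clouds, with none in the long upper tail.

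The lower elements away from the promoter were not marked by GC. Leaving out both elements at Myc transcript starts, 26 of 32 were higher, 81.2%. The other 6 lower elements, all more than 100 kb from a coding TSS, had a median GC of 41.8%, beside 44.0% in the 23 higher elements at such distances and 50% in lower desert elements elsewhere in the table. In the lowest of the 10 GC classes, where 12 elements of the locus fall, 9 were higher and 3 lower. Of these 6, only the lowest element had a q-value under 0.001.

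**Figure D3:**
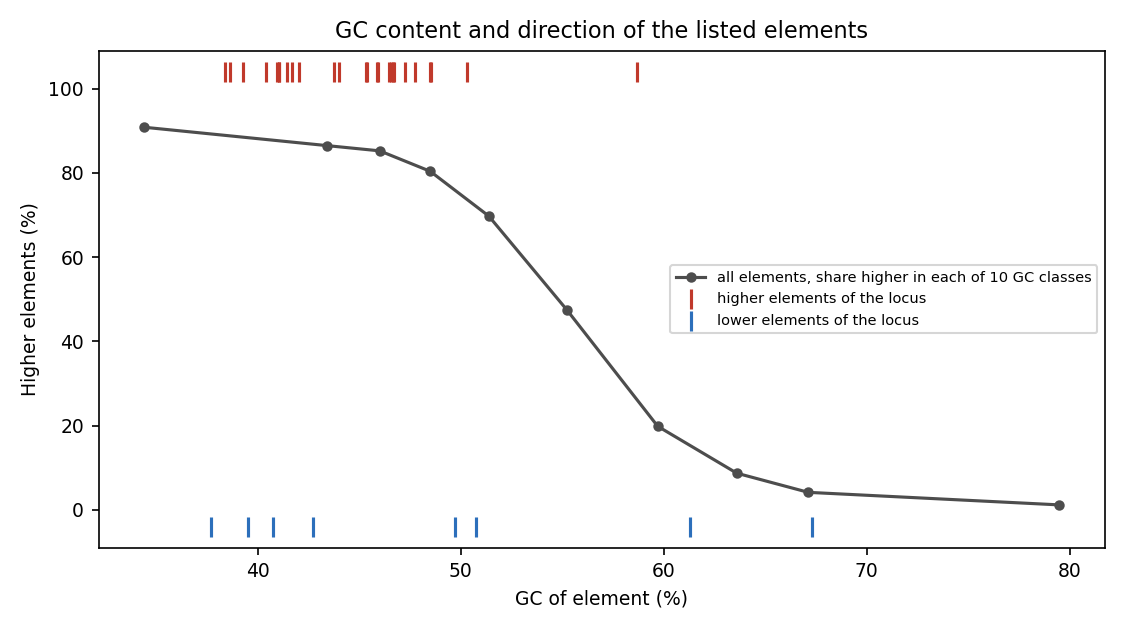
The line gives, for each of 10 classes of all listed elements by GC (x axis, %), the share that was higher (y axis, %). Red ticks at the top mark the GC of the 26 higher elements of the locus and blue ticks at the bottom that of the 8 lower ones, of which the 2 at Myc transcript starts lie at 61.3% and 67.3% GC and the other 6 between 37.7% and 50.8%.

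Exact matches to 16 motifs were counted on both strands of each element: AP-1 (TGACTCA), CRE (TGACGTCA), RUNX (TGTGGT), ETS (ACAGGAAG or ACCGGAAG), STAT (TTCNNNGAA), IRF (AAANNGAAA), NFAT (TGGAAAA), TCF/LEF (CTTTGAT), the site of GATA factors (AGATAA), ROR (TAGGTCA), RBPJ (GTGGGAA), KLF/SP (GGGCGGG), the E-boxes CACGTG and CAGCTG, and the consensus of NF-kB and of CTCF. AP-1, the FOS, JUN and BATF family that T cell receptor signals switch on, was the most frequent. It had 19 matches in 17 of 34 elements, and 2 elements held 2. Among all elements of like length 27.6% had one, and among those over 100 kb from a coding TSS, the locus included, 42.3%. The share in the locus (exact 95% interval 32.4 to 67.6%) lay above that of all elements, while its interval holds the desert share. That interval is over all 34 elements, and all 17 with a match are among the 29 over 100 kb from a coding TSS. The locus and desert shares are thus not like for like. By direction, 15 of 26 higher and 2 of 8 lower elements held a match. Among the 29 elements over 100 kb from a coding TSS alone, these were 15 of 23 higher and 2 of 6 lower. Among all higher elements of the locus the median was 1.45 with a match and 1.29 without. Those without include the higher elements within 100 kb of a coding TSS. Over the 2149 desert elements of the table, 93.9% of the 887 with a match and 82.5% of the 1262 without were higher. A match is a description of the letters and not a bound site.

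The 19 AP-1 matches are shown with 11 bases on either side, read on the strand that gives TGACTCA, since this motif was the most frequent in the locus. The elements at 588.2 kb before and 340.4 kb after Myc were lower and the other 15 higher.
657.5 kb before Myc, chr15:61327994-61328022, minus strand: atagggcactcTGACTCAgtcccctgacc
588.2 kb before Myc, chr15:61397231-61397259, plus strand: atgtcaaatgaTGACTCAagagagaactt
543.5 kb before Myc, chr15:61442012-61442040, plus strand: tgaaagcaaaaTGACTCActttgcatacc
446.2 kb before Myc, chr15:61539010-61539038, minus strand: tcagagagagcTGACTCAgagcatcaggg
446.2 kb before Myc, chr15:61539205-61539233, minus strand: tctcttctcacTGACTCAgcaccacagga
279.1 kb before Myc, chr15:61706091-61706119, plus strand: tcacctgaataTGACTCActccttgttca
120.6 kb before Myc, chr15:61864728-61864756, plus strand: ggactgccacaTGACTCAcctgctgagcg
184.4 kb after Myc, chr15:62169424-62169452, minus strand: gtagtttttggTGACTCAcagaagaaagc
204.7 kb after Myc, chr15:62189756-62189784, minus strand: cctttatcagaTGACTCAccacgcaagtg
204.7 kb after Myc, chr15:62190398-62190426, plus strand: ttttactggtaTGACTCAttcactcattt
237.6 kb after Myc, chr15:62222894-62222922, minus strand: cccaacagatcTGACTCAccagcacactg
254.7 kb after Myc, chr15:62240136-62240164, plus strand: aatgaggtgaaTGACTCAtaacttgcagc
260.1 kb after Myc, chr15:62245551-62245579, plus strand: ctaaaccactaTGACTCAttgggtaggct
286.2 kb after Myc, chr15:62271468-62271496, plus strand: atgccactgccTGACTCAcctgcactgtc
320.5 kb after Myc, chr15:62305942-62305970, plus strand: aacacatggtgTGACTCAtggctctagtt
340.4 kb after Myc, chr15:62325761-62325789, plus strand: catctccctgcTGACTCAttctgggcaca
713.3 kb after Myc, chr15:62698919-62698947, plus strand: aagaggtgtgtTGACTCAtatttgatgtt
749.8 kb after Myc, chr15:62735395-62735423, plus strand: ggaaaataaaaTGACTCAgattcataaac
824.0 kb after Myc, chr15:62809593-62809621, plus strand: atcagcctatgTGACTCAttagaagtctg

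Along the locus, AP-1 matches were found in 6 of 9 elements before Myc, in 8 of 11 over Pvt1 and in 3 of 10 beyond Pvt1, and in none of the 4 from 10 kb before Myc to Pvt1. The Myc promoter element and the element at the other Myc start thus lack it, as do the 3 higher ones that flank them. Lengths differ between the stretches, and these counts were not set against shares at like length. The median length was 650 bp before Myc, 600 bp over Pvt1 and 412.5 bp beyond Pvt1. The elements 3.7 kb before and 1.7 kb after the Myc TSS are only 75 and 150 bp long. Elements with and without a match overlapped in size: the highest element holds 1, the next by fold change (530.4 kb before Myc) holds none, and the element at 204.7 kb after Myc holds 2 with a log2 fold change of 1.13. The full CRE palindrome, a related site for CREB and ATF factors, was in none of the 34 elements (exact upper limit 10.3%), where 2.16% of all elements of like length hold it.

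Motifs of other factors that act in activated and Th17 cells were present in smaller numbers. IRF, whose members include IRF4, the partner of BATF and JUN in these cells, had a match in 15 elements (44.1%), beside 22.8% of all elements of like length and 35.5% of desert elements of like length. RUNX was matched in 14 (41.2%, beside 33.3% and 42.0%), STAT, the family of the interleukin-6 signal carrier STAT3, in 12 (35.3%, beside 16.9% and 25.7%), and GATA in 11 (32.4%, beside 14.4% and 23.9%). The desert share lies inside the exact 95% interval of the locus for all 4, and the share over all elements lies outside it for IRF (27.2 to 62.1%), STAT (19.7 to 53.5%) and GATA (17.4 to 50.5%). The intervals are over all 34 elements of the locus, of which 29 are desert elements. By direction, STAT was matched in 11 of 26 higher and 1 of 8 lower elements, IRF in 12 and 3, RUNX in 11 and 3 and GATA in 8 and 3. Over the desert elements of the table, 92.1% with a STAT match and 85.6% without were higher. These shares were 92.9% and 84.4% for IRF, 86.0% and 88.0% for RUNX and 89.4% and 86.6% for GATA. NFAT, the factor that calcium signals send to the nucleus, was matched in 6 elements and the ROR site, bound by the Th17 factor RORγt, in 5, all of them higher. These are 17.6% and 14.7% of the elements, beside 15% and 8.76% of desert elements of like length. In the whole table, 92.5% of desert elements with the NFAT match and 86.4% without it were higher. For ROR these shares were 95.3% and 86.5%. Both motifs are matched in the element 657.5 kb before Myc, with 2 NFAT matches and 1 ROR match, and in the one 286.2 kb after it, with 1 of each. NF-kB was matched in 5 elements (14.7%, beside 13.1% of all and 14.8% of desert elements of like length), of which the one 498.4 kb after Myc (1.61) holds no other of the motifs, and the one 801.1 kb after Myc (1.5) holds 1 NF-kB site, matched in registers shifted by 1 base, with matches to STAT, GATA and RBPJ, the DNA-binding partner of Notch. RBPJ was matched in 4 elements (11.8%, beside 9.70% and 9.88%), this one and those 446.2 and 3.7 kb before and 53.9 kb after Myc. All 4 were higher, as were 44.3% of all elements with the match. Among desert elements 84.9% of those with it and 87.4% of those without it were higher. The elements 3.7 kb before and 53.9 kb after Myc are not desert elements.

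KLF/SP, a GC-rich site common in promoters, was matched in 2 elements, both lower, with 3 matches in the Myc promoter element and 1 in the element 244.4 kb after Myc. Of all elements of like length 27.5% hold it, and of desert ones 7.11%. Among all elements with the match 13.2% were higher, and among desert elements with it 57.1%. CACGTG, the E-box that MYC itself binds with MAX, was absent from the Myc promoter element and matched in 3 others, at 502.3 kb (1.00) and 438.6 kb (1.07) before and 340.4 kb (-1.13) after Myc. That is 8.82% of the elements, beside 10.3% of all and 6.52% of desert elements of like length. CTCF, which marks loop anchors in chromatin, was likewise matched in none of the 34, beside 2.50% of all elements of like length, and 2 elements, 1.7 and 476.4 kb after Myc, matched none of the 16 motifs.

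**Figure D4:**
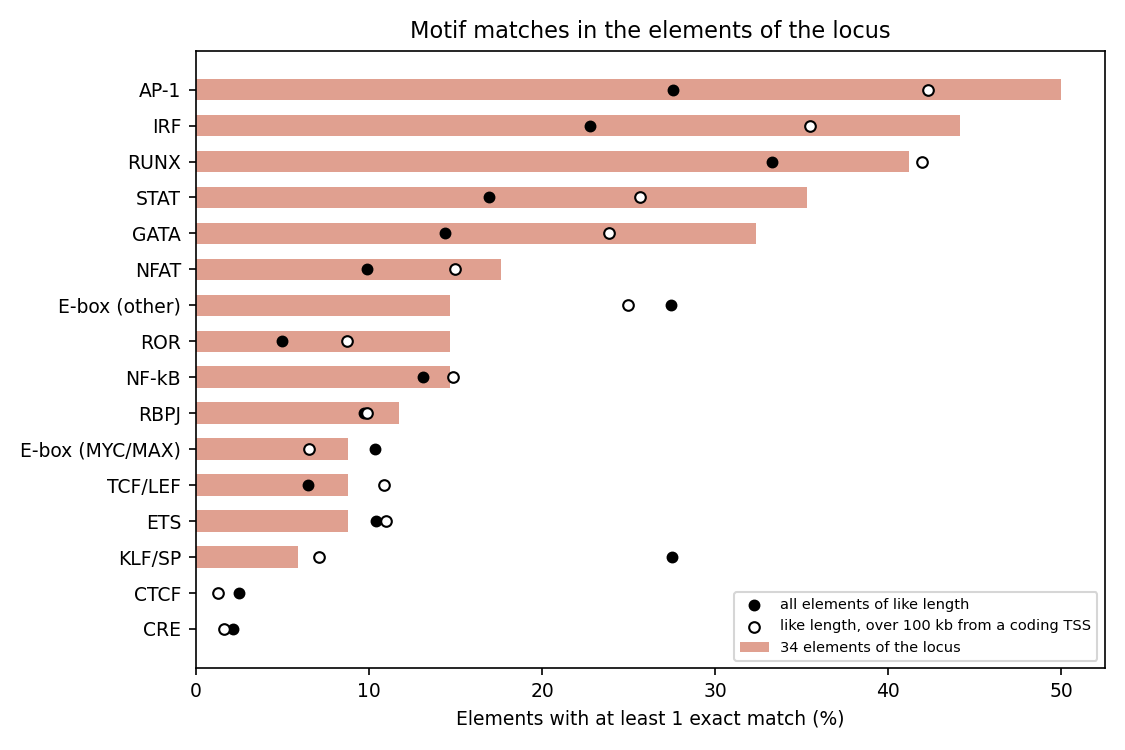
Bars give the share of the 34 elements of the locus with at least 1 exact match to each of 16 motifs (x axis, %). Filled circles give the same share over all elements within 20% of each element's length, and open circles over such elements more than 100 kb from a coding TSS. AP-1 leads with 50%, beside 27.6% and 42.3%.

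The genes of the MYC network were read the same way. The network holds the partner MAX, the MXD proteins, MXI1, MNT and MGA that compete for MAX, and the related MLX branch. Beside Myc it was given by 12 genes, of which 11 (all but Mycn) were the nearest coding gene within 100 kb of a listed element. Of their 27 elements 10 were higher, 37.0%, beside 45.7% of the 22068 elements so linked to any gene. Direction followed the distance from the TSS as it did at Myc. Within 1 kb, 1 of 15 was higher (an element of Mxi1 at 1.35), and further out 9 of 12, beside 13.3% and 70.3% over all linked elements. Max, the obligate partner of MYC, had a lower element at its promoter (-0.73, with 2 CACGTG matches) and higher ones 11.5 kb (1.93, q-value 1.42e-14) and 83.3 kb (1.55) away. Mxd3 had the highest value of the network, 2.34 at 9.8 kb, and Mxi1 had 5 higher elements, up to 2.12. Elements more than 100 kb from a coding TSS, 29 of the 34 at Myc, fall outside this link.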

How the data were processed

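STARR-seq values came from 1 element table on mm10 (GRCm38). Per the file headers the authors made it from the alignments of 4 replicates, and it holds their log2 fold change, p-value and q-value per element as deposited. The aligner and caller were not given in the sources used here. Each of the 24232 q-values equalled the Benjamini-Hochberg adjustment over 114722 tests within a relative tolerance of 1e-06. Each element was placed by its centre on GENCODE M21; 15 on contigs were left out of sequence work. GC, repeats (lower-case bases), CpG ratio (observed over expected) and exact motif matches came from GRCm38 with Python 3.11.15, pandas 2.3.3 and numpy 2.4.6. Same-length shares use elements within 20% of each element's length. GC weighting used 10 bins of all elements. Copies were sought with BLAST 2.17.0 (word size 16, identity of at least 90%). Intervals are exact binomial (scipy 1.17.1). The search and the adjustment were tested on simulated data. Elements named are those within 100 kb of Myc, at a TSS, with the smallest p-values in each stretch, the 5 highest and lowest, and those with AP-1, RBPJ or NF-kB matches; the rest were named after their values were seen, as were the groups along the locus. Members and lists were chosen with earlier results of these data known, so no list is tested. The table pools the replicates, so none could be left out.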

Additional observations from a re-analysis of the deposited data

How the results depend on the processing

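Of 79 values recomputed under other settings for 11 results, 72 stayed within 1.5 times the main count or inside the main interval and 7 moved. The median log2 fold change, the only result that could change sign, kept its sign. Listing only q-values under 0.001 left 20 of the 26 higher and 3 of the 8 lower elements. It left 6 of the 11 over Pvt1 and 6 of the 10 beyond Pvt1. Of those kept beyond Pvt1 100% were higher (exact interval 54.1 to 100%), in place of 70.0%. The setting keeps fewer elements by construction. What it keeps of all higher and all lower listed elements was not counted, so whether the locus differs in this is unknown. A minimum length of 200 bp left 1 of the 3 elements around Myc. With the RefSeq span of Pvt1, which is shorter and was chosen after seeing the data, 7 elements lay over Pvt1 and 14 beyond it, of which 71.4% were higher. The share of higher elements in all elements of like GC was 79.5%, and 88.4% when only those more than 100 kb from a coding TSS were used. A minimum size of 1 (log2) and a limit on repeats moved no result. Other window edges and leaving out copies could not move any, because they kept the same 34 elements. No listed element lay near an edge of the window, and none of the locus had another copy. The values from these settings are counted among the 72. AP-1 was matched in 12 elements within their middle 300 bases and in 25 (73.5%) with 1 mismatch allowed, beside 59.6% of all elements. Depth per element is unknown, so what it limits cannot be given. No paired analysis was possible because there is 1 group and the table pools its replicates.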

Other observations

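Elements near genes that MYC is known to raise in growing cells (nucleolar, polyamine, glycolysis, amino acid and cell cycle genes) gave a mixed picture. Of 22 such genes, 15 had a listed element within 100 kb, and 18 of their 38 elements were higher (47.4%, beside 45.7% of all linked elements). Within 1 kb of the TSS 5 of 15 were higher, and 13.3% of all elements at that distance; these 5 were at Ldha (1.21), which encodes a subunit of lactate dehydrogenase, Eif4e (1.45), the cap-binding translation factor, Nme1 (0.81 and 1.09), a nucleoside diphosphate kinase, and Mthfd2 (0.84), a mitochondrial folate enzyme. Further out 13 of 23 were higher, 56.5%, beside 70.3% of all linked elements at such distances. Of the 15 elements within 1 kb, 10 hold the E-box CACGTG. Among all 9508 elements within 1 kb of a coding TSS 18.7% do, a share not matched for length or GC. The genes were listed as known targets of MYC, which binds this E-box, so the share cannot serve as a test. Srm, which encodes spermidine synthase, joined a lower promoter element (-1.77, with 3 CACGTG matches) to one of the highest values of the list, 3.29 at 14.3 kb. Odc1, the first enzyme of polyamine synthesis, had -1.47 at its promoter and 2.89 at 37.4 kb. Its other elements had 1.15 at 4.8 kb, -0.86 at 8.2 kb, -1.05 at 8.4 kb and -1.26 at 66 kb. Ccnd2, which encodes cyclin D2, had 3.22 at 93.8 kb. It also had -0.96 at 8.1 kb and smaller higher values of 1.09, 0.79 and 0.80 between these. The values 3.29, 2.89 and 3.22 exceed the highest element of the Myc locus, 2.30.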
